A study of Homo sapiens with 2 samples.

Results

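The 10 genes described here belong to the NF-kB system: the subunit genes NFKB1, NFKB2, RELA and RELB, the inhibitor genes NFKBIA and NFKBIB, and the target genes TNFAIP3, BIRC3, CXCL1 and IL32. They were taken by symbol from the 13017 genes listed in both deposited tables, and all 10 were present. Each table gives 1 library of human breast cancer cells named 468 in the labels, an epithelioid line kept in L15 medium with fetal bovine serum. One library came from cells transfected with a Smart Silencer against the antisense RNA THAP7-AS1 (a commercial mixture of silencing oligonucleotides), the other from cells given si-NC, a negative control; both were collected at 48 h. Since both samples carry the silencer in their treatment label, the groups follow the genotype label. Each group has 1 library, so that the differences have no replicate check, no p-value is given, and every value describes these 2 libraries only.

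NF-kB is a family of dimeric transcription factors. In resting cells the dimers are held in the cytoplasm by IkB proteins, and signals from receptors of the TNF, interleukin and Toll-like families activate the IKK kinases, which mark IkB for ubiquitination and breakdown by the proteasome. Freed dimers enter the nucleus and induce genes of inflammation and survival together with their own inhibitors, so that the pathway limits itself. Many breast cancer lines are known to keep the pathway active without a signal. Activity is set largely by protein modification and location, which mRNA levels do not measure.

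The cells carried RNA of epithelial genes, and their breast origin is taken from the labels. All 6 epithelial markers examined were present in both libraries, among them KRT19 at 1106 FPKM after knockdown and 1057 FPKM in the control. FPKM stands for fragments per kilobase of transcript, scaled to the fragments of the library. CDH1 was at 12.4 FPKM after knockdown and 17.1 FPKM in the control, and EGFR at 258 FPKM after knockdown and 336 FPKM in the control. Of 6 leukocyte markers, CD14 was at 10.3 FPKM after knockdown and 9.50 FPKM in the control and CD68 at 3.30 FPKM after knockdown and 3.25 FPKM in the control, and the other 4, PTPRC among them, are not analysed here. Of 6 markers of fibroblasts and endothelium, COL1A1 was at 0.866 FPKM after knockdown and 0.874 FPKM in the control and PDGFRB at 0.0121 FPKM after knockdown and 0 in the control. Summed FPKM was 213442 after knockdown and 213888 in the control. The level of THAP7-AS1 is not analysed here and does not serve as a check of the knockdown.

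The promoters of most of the 10 genes hold a word that NF-kB is known to bind, and they are shown because NF-kB acts on its own regulators and targets through such sites. The word searched was GGGNNTTTC, on both strands, in RefSeq promoter windows of 300 bases, from 250 bases before to 50 after each annotated start (build GRCh38.p14). This spelling was chosen after several forms of the site had been tried on the same promoters. Windows were found for 9 of the 10 genes (none for RELB) and a match for 8 of those 9, all but RELA, whereas 4.78% of all 35116 windows held one. A gene can have several windows, and 9 of the 15 windows of these genes matched. In the sequences below, written 5' to 3' along the gene's strand, capitals mark the match; where they begin with GAAA the word reads on the opposite strand. The inhibitor gene NFKBIB and the target gene BIRC3, the highest and the lowest ratio among the 10, are given as whole windows, chr19:38899719-38900018 (plus strand) and chr11:102317234-102317533 (plus strand).
NFKBIB: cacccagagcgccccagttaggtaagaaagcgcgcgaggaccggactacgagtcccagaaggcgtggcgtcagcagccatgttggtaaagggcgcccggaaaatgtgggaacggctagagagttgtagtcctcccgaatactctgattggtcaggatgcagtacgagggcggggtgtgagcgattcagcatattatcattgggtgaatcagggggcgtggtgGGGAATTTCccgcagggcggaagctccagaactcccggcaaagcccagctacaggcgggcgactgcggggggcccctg
BIRC3: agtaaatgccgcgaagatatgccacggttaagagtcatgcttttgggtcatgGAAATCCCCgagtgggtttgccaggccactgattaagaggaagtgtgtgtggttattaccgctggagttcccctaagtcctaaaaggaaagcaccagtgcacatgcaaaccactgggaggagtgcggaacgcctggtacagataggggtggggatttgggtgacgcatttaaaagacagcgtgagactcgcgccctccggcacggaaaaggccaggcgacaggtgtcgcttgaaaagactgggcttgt
The matches of 4 more genes are given with 30 bases on the outer sides. Outside the N positions the letters of all matches are alike by construction of the search. The 4 genes are NFKB1 at chr4:102501280-102501348 (plus strand), NFKBIA at chr14:35404761-35404956 (minus strand), TNFAIP3 at chr6:137867163-137867243 (plus strand) and CXCL1 at chr4:73869284-73869352 (plus strand).
NFKB1: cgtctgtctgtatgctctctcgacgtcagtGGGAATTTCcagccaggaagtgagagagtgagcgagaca
NFKBIA: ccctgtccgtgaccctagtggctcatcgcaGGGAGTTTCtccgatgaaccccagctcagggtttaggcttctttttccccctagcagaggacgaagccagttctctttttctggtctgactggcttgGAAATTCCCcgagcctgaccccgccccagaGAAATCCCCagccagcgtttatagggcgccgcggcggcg
TNFAIP3: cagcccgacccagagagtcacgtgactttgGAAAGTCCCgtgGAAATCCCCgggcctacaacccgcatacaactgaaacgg
CXCL1: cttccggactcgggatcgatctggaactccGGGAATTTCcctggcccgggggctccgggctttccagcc
NFKB1, NFKBIB and CXCL1 share the same 9 letters, GGGAATTTC, and NFKBIA carries them on the opposite strand. NFKBIA had 3 matches in its window and TNFAIP3 a close pair. The single match began 28 bases before the start in NFKBIB, 49 in NFKB1, 79 in CXCL1, 99 in IL32 and 198 in BIRC3. A match is a string of letters and does not show that NF-kB binds there in these cells.

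**Figure D1:**
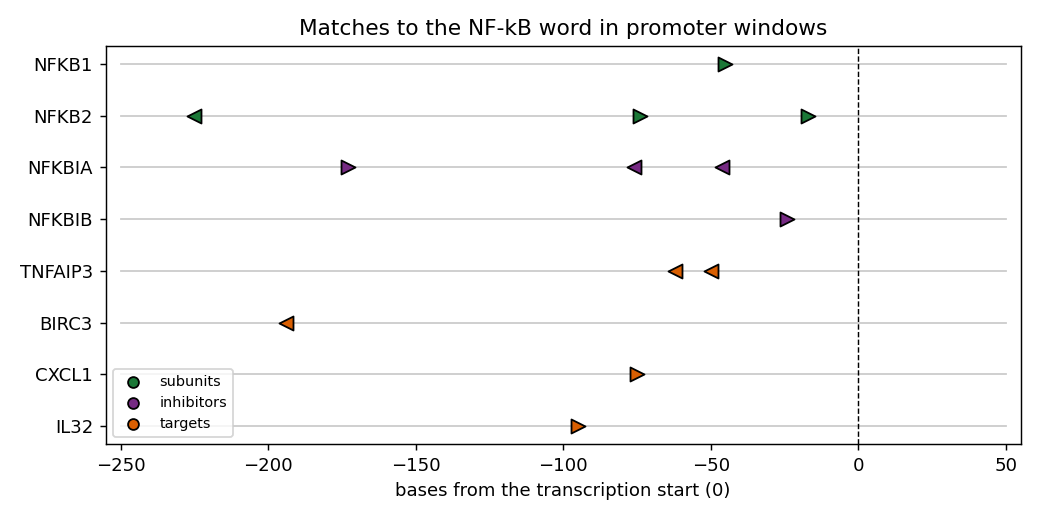
Position of each match to GGGNNTTTC in the promoter windows of 8 genes, in bases from the annotated start (0); a triangle pointing right is a match on the gene's strand, one pointing left a match on the opposite strand, and the grey line is the window. The 13 matches lie before the start, between 21 and 229 bases from it. In NFKB2 the match at 78 bases belongs to a different start from those at 229 and 21 bases, which share a window.

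At the level of mRNA, NF-kB genes were of middling abundance, and 5 of the 10 had a mean above 6.81 FPKM, the median over the 10925 genes that averaged 1 FPKM or more. Inhibitor and RELA mRNA were at the top of the 10, the feedback targets at the bottom. In knockdown cells the order by FPKM was NFKBIB, NFKBIA, RELA, NFKB2, RELB, NFKB1, TNFAIP3, BIRC3, CXCL1 and IL32. In control cells RELA led, followed by NFKBIA and NFKBIB, and BIRC3 stood above TNFAIP3; the other places were the same. No spread between cultures is available to set neighbours in either order apart.

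**Figure D2:**
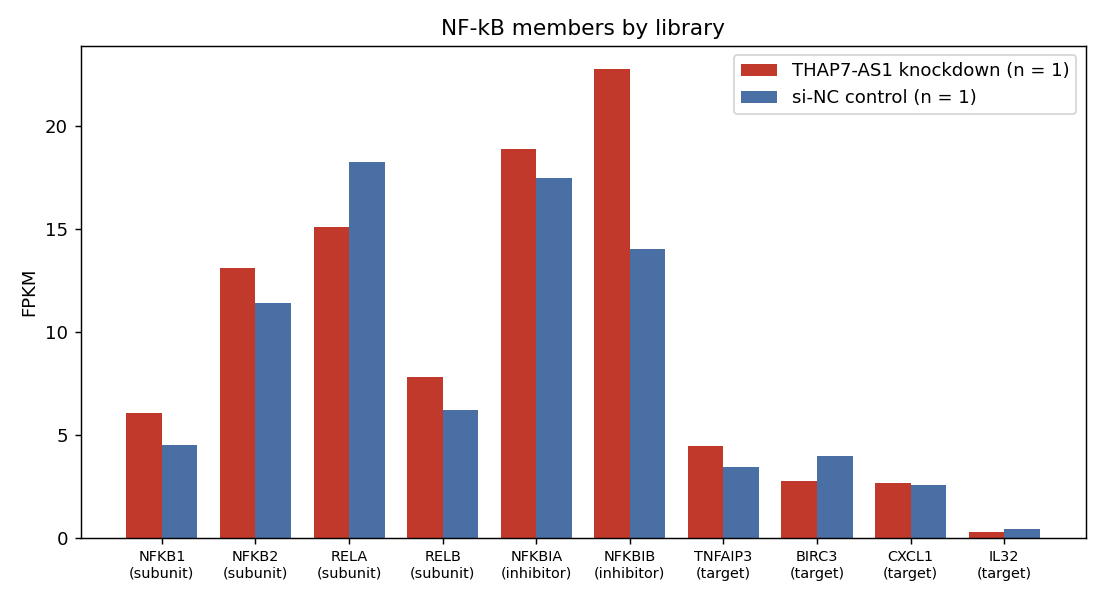
FPKM of the 10 genes in the knockdown library (red, left bar of each pair) and the control library (blue, right bar), 1 library each and so without error bars. The widest gap is that of NFKBIB, at 22.7 against 14.0 FPKM, while RELA and BIRC3 stand lower in the knockdown library.

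Differences between the libraries were read as log2 ratios of FPKM + 1, knockdown over control, and a 2-fold difference on that scale was the rule of size. The minimum mean of 1 FPKM was used as the filter. Of the 10 NF-kB genes 9 were kept, with means of 2.60 to 18.4 FPKM, and IL32 was not. At least 2-fold apart were 0 of the 9, against 1.27% of all genes kept, with 0.604% higher and 0.668% lower. At 1.5-fold 1 of the 9 was called, NFKBIB, higher after knockdown, where 5.45% of all genes kept were called, 2.98% higher and 2.46% lower. At a log2 ratio of 0.32 or more in size, 3 of the 9 were called, NFKB1 and NFKBIB higher and BIRC3 lower, against 18.6% of all genes kept, 10.7% higher and 7.89% lower. All of these member calls at 1.5-fold and at 0.32, except that of NFKBIB at 0.32, ended with a pseudocount of 5 FPKM in place of 1: the log2 ratio of NFKBIB was then 0.54, below the 0.585 that is 1.5-fold, that of NFKB1 0.21 and that of BIRC3 -0.21. By construction a larger pseudocount shrinks the ratios of all genes, and the shares over all genes kept were not taken at 5 FPKM. In a bulk library, fewer cells with an RNA and less of it per cell cannot be told apart. The median log2 ratio of the 9 was 0.19, beside 0.02 over all genes kept. Of the 10, 7 lay above 0, among them CXCL1 at only 0.03. The 3 below 0 included IL32, which was not kept. Over all genes kept 53.1% lay above 0.

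For each gene the ratio is given with an estimate of its counting error, from about 11100000 fragments after knockdown and 10900000 in the control. These depths were not taken from counts. They rest on a median of FPKM times length inside a window of 80 to 100, set after the values were seen. That window holds the depths within narrow limits, so the counting errors and fragment numbers depend on it. The error covers counting only, not differences between cultures. A second yardstick is the spread of log2 ratios over genes within 2-fold of the same level (SD from the median absolute deviation), which ranged from 0.20 to 0.23 for the 10 genes. NFKBIB lay 3.33 times that spread from 0, and the other 9 genes between 0.146 and 1.75 times. This spread is little affected by the genes furthest out, and the share of genes that lay as far out as NFKBIB was not taken. Over all genes kept 5.45% were at least 1.5-fold apart.

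Among the subunits, RELA was lower in the knockdown library and NFKB1, NFKB2 and RELB were higher, all by less than 1.5-fold. RELA encodes the subunit that carries the transactivation domain in the canonical dimer, and it was at 15.1 FPKM in knockdown cells and 18.2 FPKM in control cells, a log2 ratio of -0.26 with a counting error of 0.080. NFKB1 encodes the precursor of the DNA-binding partner of RELA and was at 6.03 FPKM after knockdown against 4.51 FPKM in the control, a log2 ratio of 0.35 with a counting error of 0.11. The pair of non-canonical subunits stood higher as well. NFKB2, whose precursor is processed when the kinase NIK is active, was at 13.1 FPKM after knockdown and 11.4 FPKM in the control (log2 ratio 0.19, counting error 0.088). RELB, the usual partner of the processed NFKB2 product, was at 7.81 FPKM after knockdown and 6.19 FPKM in the control (log2 ratio 0.29, counting error 0.13). Against the spread of genes at the same level, these ratios were 1.31 times in size for RELA, 1.59 times for NFKB1, 0.915 times for NFKB2 and 1.34 times for RELB, and whether separate cultures would give the same signs was not tested.

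Together the 4 subunits came to 42.02 FPKM in knockdown cells and 40.34 FPKM in control cells, a ratio of 1.04. RELA made up 35.9% of that sum after knockdown and 45.2% in the control, and NFKB1 made up 14.4% after knockdown and 11.2% in the control. Within a library, RELA exceeded RELB 1.93 times in knockdown cells and 2.95 times in control cells, and it exceeded NFKB1 2.498 times in knockdown cells and 4.046 times in control cells. REL, the lymphoid subunit and not one of the 10, was the scarcest of the family, with 1.36 FPKM after knockdown, 2.51 FPKM in the control and a log2 ratio of -0.57. A non-coding gene on the same strand is annotated over 5702 bases of its exons, and reads could be divided between them.

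**Figure D3:**
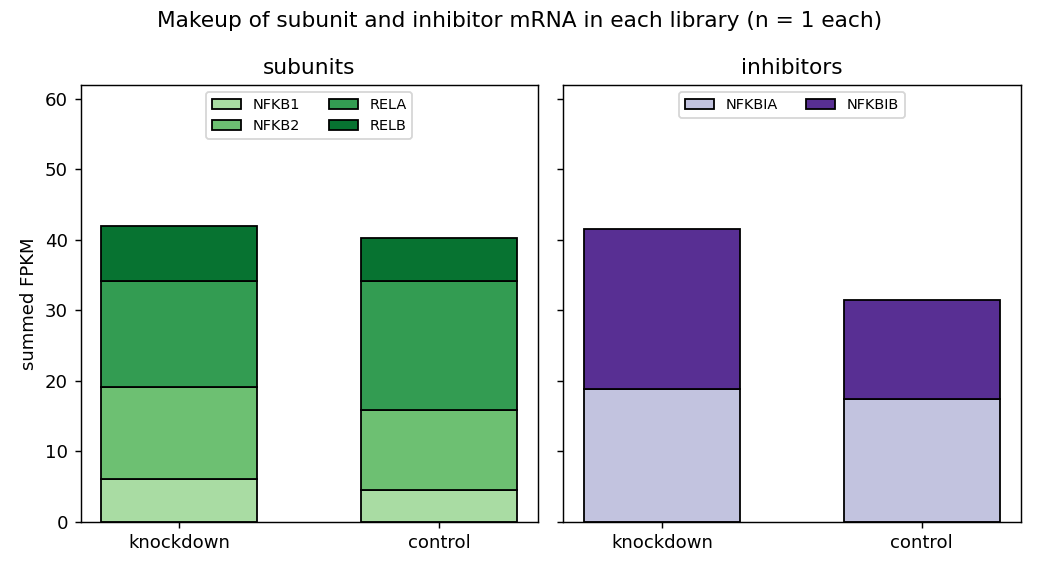
Summed FPKM of the 4 subunit genes (left panel) and the 2 inhibitor genes (right panel), knockdown left of control, each segment 1 gene and each bar 1 library. The subunit bars reach 42.02 FPKM after knockdown and 40.34 FPKM in the control and the inhibitor bars 41.6 FPKM after knockdown and 31.5 FPKM in the control; most of the inhibitor gap is NFKBIB.

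NFKBIB gave the largest difference of the 10. It encodes IkB-beta, an inhibitor that binds dimers of RELA, and was at 22.7 FPKM after knockdown against 14.0 FPKM in the control. On the FPKM + 1 scale it was 1.58-fold higher, a log2 ratio of 0.66 with a counting error of 0.10. That ratio was 3.33 times the spread of genes at the same level, and 5.45% of all genes kept were at least 1.5-fold apart. Its exons overlap those of SIRT2 on the opposite strand by 40 bases; SIRT2 was at 4.91 FPKM after knockdown and 4.53 FPKM in the control. NFKBIA encodes IkB-alpha, the inhibitor best known for being broken down and remade within each round of activation. Its 18.9 FPKM after knockdown and 17.4 FPKM in the control gave a log2 ratio of 0.11 with a counting error of 0.11, which did not differ beyond counting error.

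The inhibitor sum was higher against the subunit sum in the knockdown library, mostly through NFKBIB. The sum of the pair was 41.6 FPKM after knockdown and 31.5 FPKM in the control, a ratio of 1.32. Set against the subunit sum of the same library, it came to 0.990 in knockdown cells and 0.780 in control cells. NFKBIB exceeded NFKBIA 1.21 times in knockdown cells and stood at 0.804 of it in control cells. NFKBIE, the third classical IkB gene and not one of the 10, also stood higher, at 11.7 FPKM after knockdown and 6.51 FPKM in the control, a log2 ratio of 0.76, the highest of its list of further subunit and ankyrin inhibitor genes, whose median was 0.07. Of the nuclear IkB-like genes in that list, BCL3 was at 15.03 FPKM after knockdown and 14.96 FPKM in the control, NFKBID at 2.32 FPKM after knockdown and 2.19 FPKM in the control, and NFKBIZ, an inducible one, at 6.57 FPKM after knockdown and 8.64 FPKM in the control, a log2 ratio of -0.35. With NFKBIE and REL counted in, the ratio of inhibitors to subunits was 1.23 and 0.886 in knockdown and control cells. NFKBIE and REL had the largest log2 ratios in size of their list, and each of them widens that gap. These are ratios of mRNA and do not give the balance of the proteins.

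The 4 targets did not share a direction. TNFAIP3 encodes a ubiquitin-editing enzyme that shuts off signalling to IKK, and was at 4.44 FPKM after knockdown and 3.44 FPKM in the control (log2 ratio 0.29, counting error 0.11), 1.27 times the spread of genes at its level. BIRC3, a ubiquitin ligase of TNF receptor complexes that restrains cell death, was at 2.74 FPKM after knockdown and 3.96 FPKM in the control, 1.33-fold lower on the FPKM + 1 scale, with a log2 ratio of -0.41 and a counting error of 0.11, in size 1.75 times that spread. Within a library TNFAIP3 was 1.62 times BIRC3 in knockdown cells and 0.870 times in control cells. TNFAIP3 shares 95 exon bases with an antisense gene, whose reads cannot be told apart from its own where strand is unknown. BIRC2, the close paralog beside BIRC3 in the genome, was at 7.49 FPKM after knockdown and 7.41 FPKM in the control.

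Both cytokine genes were low and gave no difference that the depth could show. The neutrophil chemokine gene CXCL1 was at 2.64 FPKM after knockdown and 2.56 FPKM in the control, from an estimated 32 fragments after knockdown and 31 in the control, and its log2 ratio of 0.03 lay inside a counting error of 0.26 and turned to -0.0020 under quantile normalization. Its near-identical neighbours gave similar values in both libraries, with CXCL2 at 2.94 FPKM after knockdown and 3.47 FPKM in the control and CXCL3 at 1.33 FPKM after knockdown and 1.31 FPKM in the control; reads may be divided among the 3 genes. CXCL8, a related chemokine gene, was at 5.85 FPKM after knockdown and 5.50 FPKM in the control. The cytokine gene IL32 had 0.304 FPKM after knockdown and 0.439 FPKM in the control, from about 4 fragments after knockdown and 6 in the control, and a log2 ratio of -0.14 with a counting error of 0.24. IL32 shares 129 exon bases with RNU1-125P on the same strand. The 4 targets summed to 10.1 FPKM in knockdown cells and 10.4 FPKM in control cells.

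**Figure D4:**
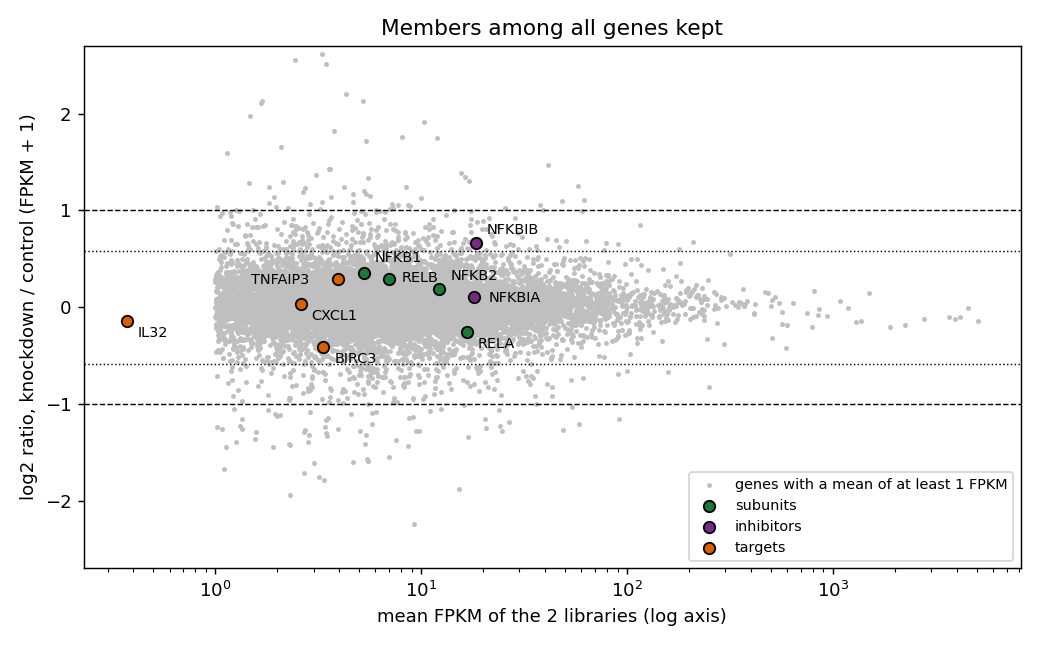
Log2 ratio of FPKM + 1, knockdown over control, against mean FPKM (log axis), for the 10925 genes kept (grey; 9 lie outside the plotted range) and the 10 NF-kB genes (coloured by role). Dashed lines mark 2-fold and dotted lines 1.5-fold; NFKBIB alone of the 10 lies beyond a dotted line, and IL32 lies left of the genes kept.

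The rest of the pathway was examined through 8 lists of genes, from ligands to further targets, of which 99 of 124 were kept. Of these 99 genes 0 were at least 2-fold apart, beside 1.27% of all genes kept, and 4 were at least 1.5-fold apart, 4.04% beside 5.45%. One of the 4 was higher after knockdown, NFKBIE, and 3 were lower. Their median log2 ratio was -0.03, with 42 above 0 and 57 below.

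Upstream, 0 of the 5 ligand genes kept were 1.5-fold apart, beside 5.45% of all genes kept. TNF, the prototype ligand of the pathway, was at 2.24 FPKM after knockdown and 1.17 FPKM in the control. Its log2 ratio was 0.581, just under 1.5-fold on the FPKM + 1 scale, which understates the change of low genes. TNFSF12, the TWEAK ligand, was at 1.95 FPKM after knockdown and 1.20 FPKM in the control. TNFSF12 shares exons with the readthrough gene TNFSF12-TNFSF13. TNFSF10, the TRAIL ligand, was at 18.3 FPKM after knockdown and 22.6 FPKM in the control, and IL1A and IL1B were listed at 0 in both libraries.

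The TNF receptor gene TNFRSF1A, at 8.67 FPKM after knockdown and 8.97 FPKM in the control, and the lymphotoxin receptor gene LTBR, at 9.89 FPKM after knockdown and 10.4 FPKM in the control, were nearly level. TNFRSF12A, the receptor for TWEAK, was at 45.2 FPKM after knockdown and 42.7 FPKM in the control, above each of the 10 NF-kB genes in both libraries. TNFRSF21, a death receptor, was at 16.6 FPKM after knockdown and 32.1 FPKM in the control. On the FPKM + 1 scale it was 1.88-fold lower, the only receptor of 8 past 1.5-fold. IL1R1, the receptor for interleukin-1, was at 3.25 FPKM after knockdown and 2.31 FPKM in the control, and its co-receptor gene IL1RAP at 0.881 FPKM after knockdown and 1.24 FPKM in the control.

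Between receptor and IkB, 0 of 44 adaptor, kinase, ubiquitin and IkB-ligase genes were 1.5-fold apart, beside 5.45% of all genes kept. Of the IKK complex, CHUK (IKK-alpha) was at 3.003 FPKM after knockdown and 4.24 FPKM in the control, a log2 ratio of -0.39. IKBKB (IKK-beta) was at 2.995 FPKM after knockdown and 2.956 FPKM in the control, and the scaffold gene IKBKG, which has a near-identical pseudogene, at 8.67 FPKM after knockdown and 10.1 FPKM in the control. CHUK shares 37 exon bases with ERLIN1 on the same strand, which was at 7.54 FPKM after knockdown and 5.68 FPKM in the control.

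The other genes named in this layer differed by less than 1.5-fold. IKBKE, an IKK-related kinase gene, was at 6.58 FPKM after knockdown and 5.19 FPKM in the control and MAP3K3 at 3.29 FPKM after knockdown and 4.21 FPKM in the control. TAX1BP1 and ITCH, which both encode partners of the TNFAIP3 protein, differed in direction, at 35.1 FPKM after knockdown and 27.2 FPKM in the control and at 7.66 FPKM after knockdown and 9.91 FPKM in the control. RNF31, the catalytic subunit of the linear ubiquitin ligase, was at 4.44 FPKM after knockdown and 3.88 FPKM in the control and shares 1732 exon bases with AL136295.5 on the same strand, at 2.61 FPKM after knockdown and 1.64 FPKM in the control, and 216 with PSME2 on the opposite strand, at 16.6 FPKM after knockdown and 16.1 FPKM in the control. MALT1, IRAK4 and TRAF6, from the list of adaptors and ubiquitin ligases, all had log2 ratios below 0. MALT1 was at 3.65 FPKM after knockdown and 4.65 FPKM in the control. IRAK4 was at 1.01 FPKM after knockdown and 1.37 FPKM in the control, and TRAF6 at 6.67 FPKM after knockdown and 7.61 FPKM in the control. BTRC and FBXW11 encode the F-box proteins that recognise phosphorylated IkB, and were at 3.95 FPKM after knockdown and 4.86 FPKM in the control and at 11.5 FPKM after knockdown and 13.4 FPKM in the control; UBE2D2, an E2 enzyme, was at 28.4 FPKM after knockdown and 32.3 FPKM in the control.

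Of 34 further targets kept, 2 were 1.5-fold apart, both lower after knockdown, beside 5.45% of all genes kept apart and 2.46% lower. Their median log2 ratio was -0.03, and 13 lay above 0, beside 53.1% of all genes kept. PLAU, the urokinase protease gene, was at 4.80 FPKM after knockdown and 10.4 FPKM in the control, 1.97-fold lower on the FPKM + 1 scale. It passed 2-fold with a pseudocount of 0.5 or 0.1 in place of 1. A smaller pseudocount widens the ratios of all genes, and the shares over all genes kept were not taken at those settings. PLAU shares 916 exon bases with C10orf55 on the opposite strand, and since strandedness is not given in the sources used here, reads of the 2 genes cannot be told apart. GCH1, which starts tetrahydrobiopterin synthesis, was at 1.79 FPKM after knockdown and 3.52 FPKM in the control. On the FPKM + 1 scale GCH1 was 1.62-fold lower. The acute-phase gene SAA2 was at 10.3 FPKM after knockdown and 14.5 FPKM in the control; it has a near-identical copy, SAA1, and shares exons with SAA2-SAA4.

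**Figure D5:**
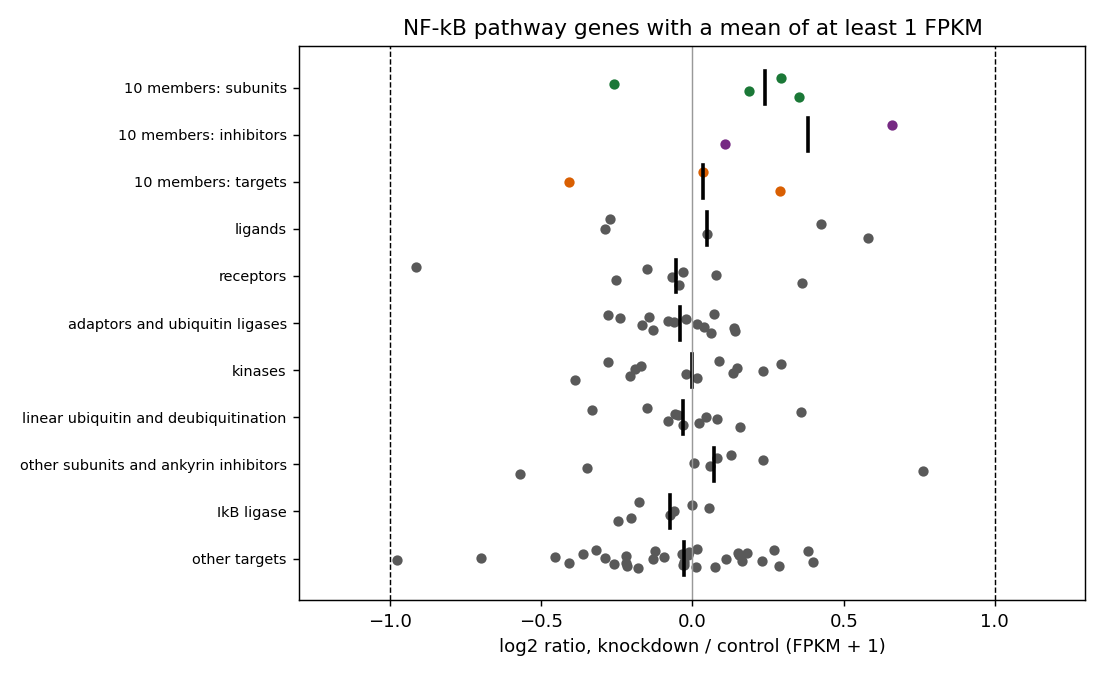
Log2 ratio of FPKM + 1, knockdown over control, for each NF-kB pathway gene kept, by list; each point is 1 gene, the black bar the median of its list, and the dashed lines mark 2-fold. All points lie inside the dashed lines, and PLAU, at -0.98, is nearest to one.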

How the data were processed

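RNA of 2 libraries, knockdown and control, was examined. Each deposited table lists FPKM per gene, per the file headers. Of tools, cutadapt, HISAT2 2.0.5 and StringTie are named in the submitters' processing notes, with the build hg19. No source used here gives the gene annotation, the strandedness or other versions. FPKM depends on all other genes of a library, and the share of reads given to overlapping models is an estimate.

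Identifiers without version gave a symbol for 12903 of 13017 genes. Log2 ratios used FPKM + 1, which understates the change of low genes, and a minimum mean of 1 FPKM left 10925 genes. GENCODE 29, on another build, was used by identifier only, for exon overlaps and transcript lengths. Overlaps are not stated for every named gene that has them, and IL1RAP, MALT1, MAP3K3 and TAX1BP1 are among those left out. One fragment was taken as the median FPKM times length among single-transcript genes between 80 and 100, over 14 knockdown and 10 control genes, a window set after the values were seen. Fragments per gene used the longest coding transcript and may be overstated.

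With 1 library per group no test was made. Named genes were all 10 members, the 3 largest ratios of each pathway list, the IKK genes, REL, TNFRSF1A, LTBR, and genes that share exons with a named gene or are close paralogs of a member (BIRC2, CXCL2, CXCL3, CXCL8). IL1A, IL1B, TNFRSF12A, BCL3 and NFKBID fall outside that rule and were chosen after their values were seen. The members and lists were chosen with earlier results of these data known. Alternatives changed the pseudocount, scaling, filter and fold. The ratio and the 2-fold rule were also run on simulated data, with changes planted only in genes more abundant than any of the 10 members. That run does not cover the levels of the members or the lower folds. The work used numpy 2.4.6 and pandas 2.3.3 under Python 3.11.15, with scipy 1.17.1 for ranks and matplotlib 3.10.9 for figures.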

Additional observations from a re-analysis of the deposited data

How the results depend on the processing

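No member was at least 2-fold apart under any pseudocount, scaling or filter tried; by construction lower folds took more, 1 higher at 1.5-fold, and 2 higher and 1 lower at a log2 ratio of 0.32. Over all genes kept the shares were 1.27% at 2-fold, 5.45% at 1.5-fold and 18.6% at 0.32 (10.7% higher and 7.89% lower). The 99 genes kept from the pathway lists gave 0 higher and 0 lower at 2-fold and 1 higher and 3 lower at 1.5-fold. At 0.32 these lists gave 7 higher and 10 lower genes. PLAU alone passed 2-fold, making 1 lower gene, with pseudocounts of 0.1 and 0.5 and with each of the 3 rescalings, to equal sums, without the 100 most abundant genes and without mitochondrially encoded genes; by construction these rescalings raise every FPKM while 1 is still added, and so act as a smaller pseudocount. Other pseudocounts and scalings gave 80 member ratios, of which 77 stayed within the spread of genes at that level. The 3 that moved more were all of IL32, which ranged from -0.42 to -0.036. The ratio of CXCL1 changed sign under 1 setting, to -0.0020. NFKBIB ranged from 0.54 to 0.69, RELA from -0.29 to -0.21 and BIRC3 from -0.53 to -0.21. With a pseudocount of 5 NFKBIB, at 0.54, was no longer 1.5-fold apart, and NFKB1, at 0.21, and BIRC3, at -0.21, fell short of 0.32. A larger pseudocount shrinks the ratios of all genes, and the shares over all genes kept were taken only with a pseudocount of 1. No paired analysis was possible because each group has 1 library. Depth limits IL32 and CXCL1 most, and no alternative measures the spread between cultures.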

Other observations

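Promoter windows were found for 8860 of the 10925 genes kept, and 570 of these, 6.43%, had a match to GGGNNTTTC in at least 1 window. Their median log2 ratio was 0.0020, and that of the 8290 genes without a match was 0.015. At least 2-fold apart were 1.40% of the genes with a match and 1.15% of those without. Of the 8 such genes with a match, 2 were higher and 6 lower after knockdown, beside 50 higher and 45 lower among the genes without one; those named here were chosen after their values were seen. MAPK14, a stress-activated kinase gene, was at 6.67 FPKM after knockdown and 2.61 FPKM in the control. The readthrough gene FMC1-LUC7L2 had 9.38 FPKM after knockdown and was listed at 0 in the control. IL4R, the interleukin-4 receptor gene, was at 1.18 FPKM after knockdown and 4.27 FPKM in the control, and the nucleic acid-binding protein gene CNBP at 56.1 FPKM after knockdown and 126 FPKM in the control.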
